A study of Mus musculus with 6 samples.

Results

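The inflammatory chemokine ligands were followed in primary ovarian tumors grown in wild-type (WT) mice and in mice lacking *Tgm2*. They are the 31 genes, of 20076 in the deposited expression table, whose symbol begins with Ccl, Cxcl, Cx3cl or Xcl and a number, without 8 symbols of 39 (*Cxcl13*, *Ccl19*, *Ccl21a*, *Ccl21b*, *Ccl21d*, *Ccl24*, *Ccl25* and *Ccl28*). The 31 are 17 CC chemokines, 12 CXC chemokines, *Cx3cl1* and *Xcl1*, and the symbol rule itself uses no expression value. One of them by symbol, *Ccl19-ps2*, is a pseudogene that resembles *Ccl19* and was kept because the symbol rule keeps it.

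Bulk RNA was sequenced from 6 tumors, 3 from WT C57BL/6 mice and 3 from C57BL/6 mice with *Tgm2* knocked out, labelled TGM2_KO. All mice had received cells of the mouse ovarian cancer line ID8, here ID8 Trp53-/- Brca1-/- with both genes knocked out by CRISPR, by injection under the bursa of both ovaries, and the tumors were collected at week 6. The knockout is in the host only, so the injected cancer cells of both groups still carry an intact *Tgm2* gene. The labels call the samples cancer cells, but each is a whole tumor with host cells in it, and they do not say whether a library holds the tumor of 1 ovary or of both. The age of the mice is not given in the labels.

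Chemokines are small secreted proteins that direct the migration of leukocytes through G protein-coupled receptors, and most receptors bind several ligands. The ligands followed here are mainly those induced in inflamed tissue, as opposed to the homeostatic ligands that organise lymphoid tissue. In tumors they are made by macrophages, dendritic cells, fibroblasts, endothelium and the cancer cells themselves, and they are known for drawing in T cells, NK cells, monocytes and neutrophils. Transglutaminase 2, the product of *Tgm2*, crosslinks proteins and binds fibronectin in the matrix.

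All values below are normalized counts unless another scale is named, and fold changes are on the log2(value + 1) scale, knockout minus WT, which understates the change of genes with a few counts. Depth was similar, with totals of 34801694, 35325875 and 33916288 in WT tumors 1 to 3 and of 32316613, 35827822 and 37717165 in knockout tumors 1 to 3. One read was worth between 0.945 and 1.08 normalized counts, so ligands with a few counts rest on a few reads. A gene was called when its Benjamini-Hochberg adjusted p from limma was under 0.05 and its log2 fold change at least 1 in either direction. With 3 tumors against 3, an exact permutation test of a single gene cannot give a p below 0.1.

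*Tgm2* itself (chr2:158116402-158146436, GRCm38, minus strand) had 14978, 12155 and 13180.0 normalized counts in WT tumors 1 to 3, against 5853, 6072 and 8157 in knockout tumors 1 to 3. The 3 knockout values were all below the 3 WT values, and transcripts of the gene were present in all 6. The log2 fold change was -1.02 (standard error [SE] 0.22; adjusted p = 0.391 from limma; two-sided exact permutation p = 0.1, the smallest possible). Of 9 markers of ovarian tumor epithelium, *Wt1* (13131 to 20641 normalized counts), *Msln* (5107 to 7208) and the keratins *Krt8*, *Krt18* and *Krt19* (5251 to 21948) were above 5000 in every tumor. The others were uneven, with 90.5 to 8047 of *Epcam*, 40.9 to 1905 of *Pax8*, 342 to 3666 of *Krt7* and 373 to 1771 of *Muc16*, the first 3 of these highest in WT tumor 3.

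The 6 libraries differed in transcripts of other tissues, and the part of this in the ligand values was not tested. WT tumor 3 stood apart in transcripts of secretory mucosal epithelium, with 52176 normalized counts of *Ltf* (lactoferrin) and 9321 of *Pigr*, the receptor that carries IgA across epithelium, against at most 3968 and 332 in any other tumor. Knockout tumors 1 and 2 held 37108 and 55944 normalized counts of the oviduct glycoprotein gene *Ovgp1*, against at most 9244 elsewhere. Knockout tumor 1 was also the highest in the steroid-producing enzyme gene *Cyp11a1*, with 22480.0 normalized counts. These genes were picked after their values were seen. In bulk tissue, fewer cells of a type and less RNA per cell cannot be told apart, and this holds for every value that follows.

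The promoters of 5 ligands are shown first, chosen because *Cxcl9* and *Cxcl10* are neighbours whose values are compared below and because *Cxcl1*, *Cxcl2* and *Cxcl3* share a stretch of letters. *Cxcl9* and *Cxcl10* are neighbours on chromosome 5 and encode interferon-induced ligands of CXCR3, the receptor of activated T cells and NK cells. Each sequence runs 5′ to 3′ on the strand of the gene from 250 bases before the start site to 50 after it (RefSeq, GRCm38.p6), at chr5:92328030-92328329 for *Cxcl9* and chr5:92348840-92349139 for *Cxcl10*, both on the minus strand. Capitals mark matches, on either strand, to the gamma-interferon activated site (GAS, TTCNNNGAA), the core of the interferon-stimulated response element (ISRE, a pair of GAAA with 2 bases of any kind between) or the NF-kB motif.
Cxcl9: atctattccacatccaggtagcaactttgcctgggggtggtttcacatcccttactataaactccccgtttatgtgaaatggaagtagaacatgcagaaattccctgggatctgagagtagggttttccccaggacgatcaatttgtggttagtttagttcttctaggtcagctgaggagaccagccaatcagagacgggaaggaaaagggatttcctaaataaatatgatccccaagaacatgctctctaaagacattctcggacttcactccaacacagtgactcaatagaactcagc
Cxcl10: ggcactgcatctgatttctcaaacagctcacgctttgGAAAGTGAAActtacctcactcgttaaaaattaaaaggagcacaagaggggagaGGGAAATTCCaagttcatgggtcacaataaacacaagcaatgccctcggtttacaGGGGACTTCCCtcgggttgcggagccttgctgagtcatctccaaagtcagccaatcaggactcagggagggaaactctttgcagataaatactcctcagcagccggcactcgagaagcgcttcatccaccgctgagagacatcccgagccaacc
The *Cxcl10* window held an ISRE core 213 bases before the start site and NF-kB matches 159 and 104 bases before it, and the second of these overlapped a further match 1 base on. No match lay in the *Cxcl9* window, which says only that these letters are not in it.

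The second group is *Cxcl1*, *Cxcl2* and *Cxcl3*, closely related ligands of the neutrophil receptor CXCR2 that lie near each other on chromosome 5. Each stretch below is 51 bases, 5′ to 3′ on the plus strand, at chr5:90891154-90891204, chr5:90903782-90903832 and chr5:90786008-90786058, and the capitals mark 2 overlapping NF-kB matches, 1 on each strand.
Cxcl1: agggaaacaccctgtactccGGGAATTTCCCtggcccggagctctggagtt
Cxcl2: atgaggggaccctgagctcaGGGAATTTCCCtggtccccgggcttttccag
Cxcl3: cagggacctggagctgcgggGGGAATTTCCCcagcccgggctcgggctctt
The matched letters were the same in all 3 promoters and began 71, 97 and 73 bases before the start sites. Promoters were found for 21 of the 31 ligands (26 windows, some genes having more than 1 start site), and 8 ligands held an NF-kB match in 1 window each (*Ccl1*, *Ccl9*, *Ccl20*, *Ccl27a*, *Cxcl1*, *Cxcl2*, *Cxcl3* and *Cxcl10*), against 8.46% of all 32851 promoters of the same length. A GAS match lay in 2 (*Ccl17* and *Cxcl14*; 8.3% of all promoters) and an ISRE core in 2 (*Cxcl10* and *Cxcl14*; 3.44%). A match is a run of letters and was not tested as a binding site.

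Ligand transcripts spanned a wide range of levels. Per kilobase of mean transcript length, averaged over the 6 tumors, *Ccl8* was the highest with 4299 normalized counts, followed by *Cx3cl1* (4062), *Cxcl14* (2444), *Cxcl16* (1725), *Ccl6* (1626), *Cxcl17* (1570.5) and *Cxcl10* (1529). The first place of *Ccl8* rests on knockout tumors, since it had 2230 per kilobase in WT, under *Cx3cl1* (3966) and *Cxcl17* (2339), and 6368 in knockout tumors. Without knockout tumor 2, *Cx3cl1* came first with 4045 and *Ccl8* second with 2823. *Ccl20*, *Ccl27b* and *Cxcl11* were the lowest, each under 4 per kilobase. Without the length correction, 10 ligands averaged at least 1000 normalized counts, 8 averaged 100 to 1000, 10 averaged 10 to 100 and 3 averaged under 10. All 31 passed the filter on low values, and 27 had at least 1 normalized count in every tumor.

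**Figure D1:**
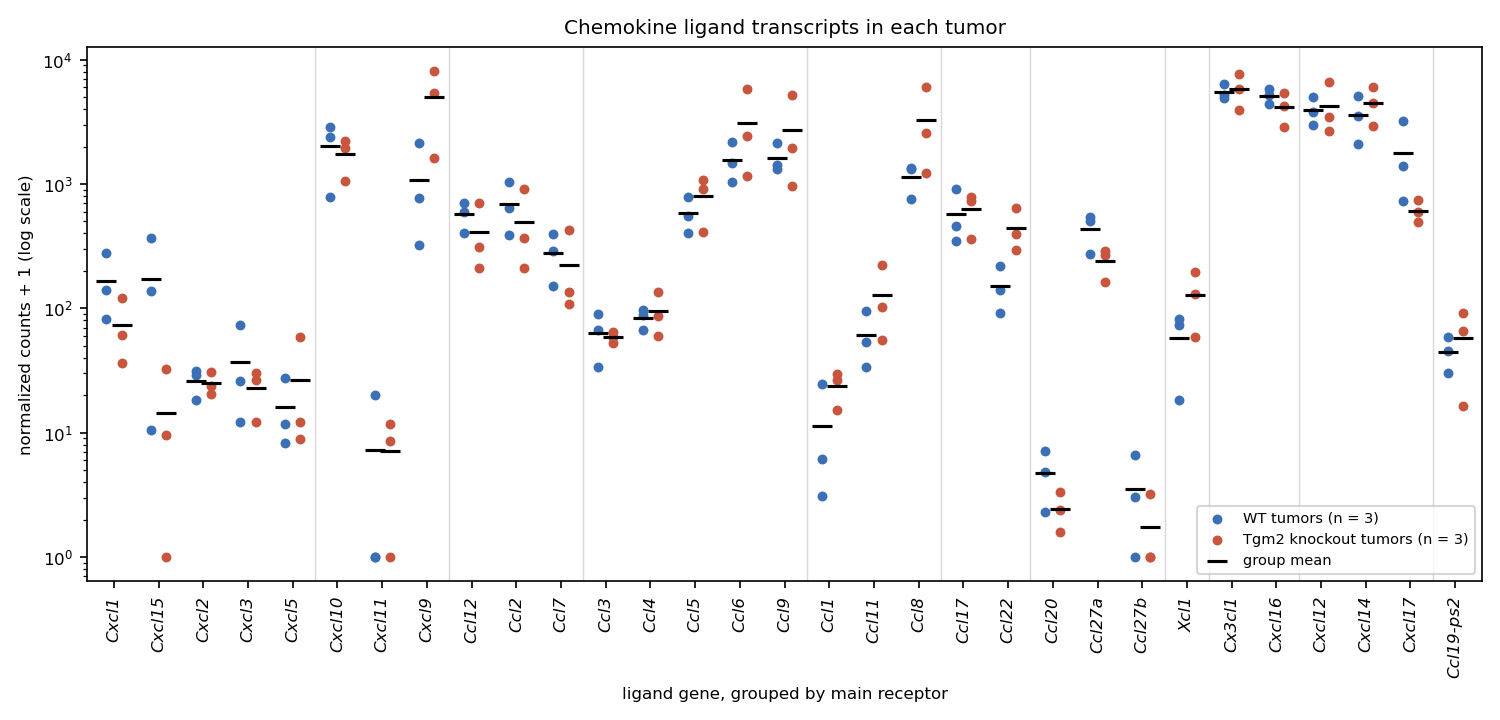
Normalized counts + 1 of each of the 31 ligands (log scale) in the 3 WT tumors (blue) and 3 *Tgm2* knockout tumors (red), with group means as black bars and ligands grouped by main receptor. *Cxcl9* and *Ccl8* reach their highest values in knockout tumors, *Cxcl17* and *Cxcl15* in a WT tumor, and the groups are separate for *Ccl22* only.

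No ligand was called in either direction. Of all 19667 genes tested, 20 (0.102%) were called higher and 0 (0.0%) lower in knockout tumors, and the smallest adjusted p among the ligands was 0.649, for *Ccl22*. At an unadjusted p under 0.05, 3 ligands were higher (*Cxcl9*, *Ccl22* and *Ccl8*) and 1 lower (*Cxcl17*), beside 3.4% and 2.38% of all genes. The groups did not overlap for 1 ligand above (*Ccl22*) and 0 below, beside 5.18% and 5.33% of all genes. The fold changes were positive for 17 ligands and negative for 14, with a median of 0.035 against -0.027 over all genes. The median SE of the ligands was 0.54 on the log2 scale, against 0.37 over all genes, and the 95% interval lay within 1 of 0 for 3 of them (*Cx3cl1*, *Cxcl12* and *Cxcl16*).

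**Figure D2:**
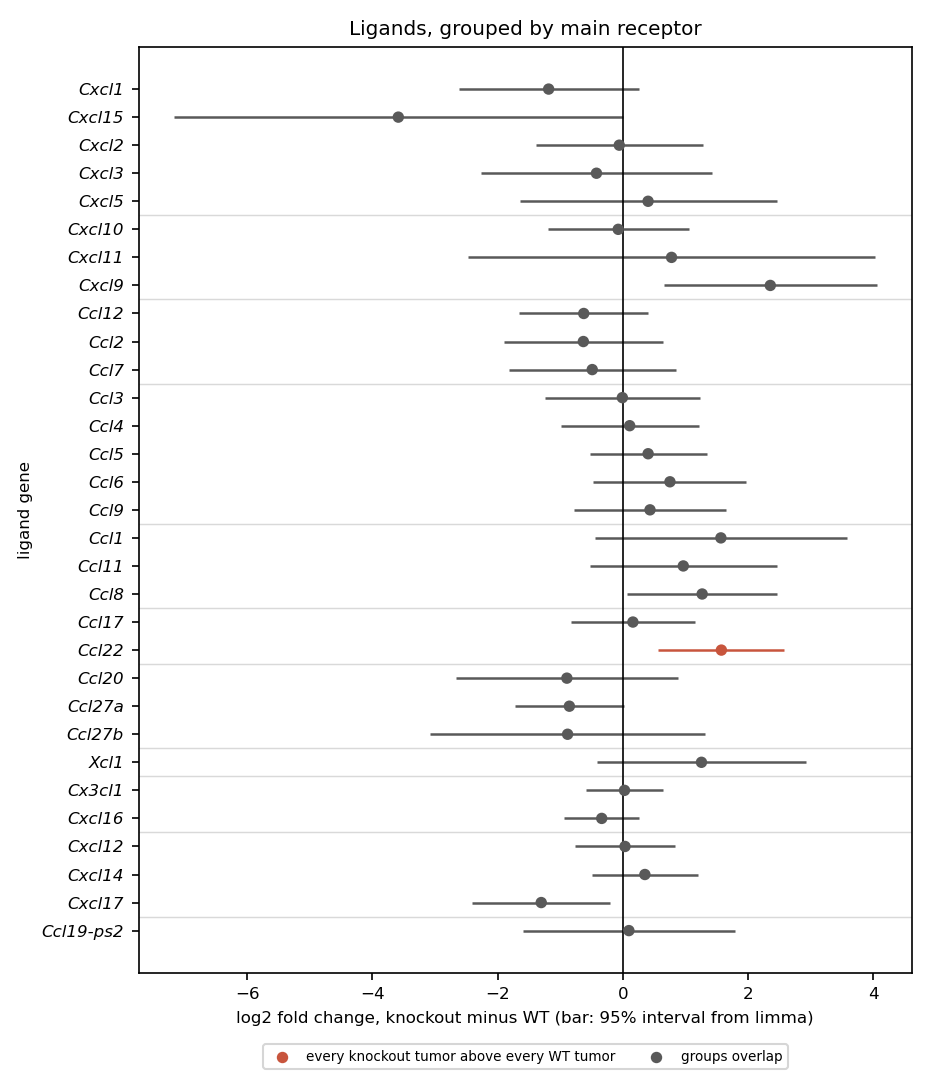
Log2 fold change, knockout minus WT, of the 31 ligands grouped by main receptor, with the 95% interval from limma (bars, n = 3 tumors per group). Intervals lie above 0 for *Cxcl9*, *Ccl22* and *Ccl8* and below 0 for *Cxcl17*, before adjustment over all genes, and *Ccl22* (red) is the ligand whose groups do not overlap.

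The CCR4 ligands *Ccl22* and *Ccl17* are typical products of dendritic cells and macrophages that attract regulatory and type 2 helper T cells. *Ccl22* (chr8:94745590-94751699) had 218, 139 and 91.2 normalized counts in WT tumors, against 291, 393 and 643 in knockout tumors. The lowest knockout value exceeded the highest WT value, and the closest values, 218 and 291, were in the tumors numbered 1. The log2 fold change was 1.57 (SE 0.44, 95% interval 0.57 to 2.58), which did not pass adjustment (limma adjusted p = 0.649). Leaving out each tumor in turn gave 1.26 to 1.89. *Ccl17* (chr8:94810453-94812036), which lies near *Ccl22* on the same chromosome, had 348, 918 and 460.0 normalized counts in WT tumors and 360.1, 723 and 789 in knockout tumors. Its groups overlapped throughout, with a log2 fold change of 0.16 (SE 0.43, 95% interval -0.83 to 1.15) that was -0.14 without WT tumor 1. The gene between them, *Cx3cl1* (chr8:94772009-94782427), was also close to 0 and is described with the membrane-bound ligands.

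Of the CXCR3 ligands, *Cxcl9* (chr5:92321347-92328079) had 2130.5, 764 and 321 normalized counts in WT tumors and 1626, 5372 and 8048 in knockout tumors. The groups overlapped because WT tumor 1 exceeded knockout tumor 1, while knockout tumors 2 and 3 lay above all WT tumors. The log2 fold change was 2.35 (SE 0.74, 95% interval 0.65 to 4.06; adjusted p = 0.714 from limma), the largest positive value among the 31 ligands, and it ranged from 1.69 to 3.06 when each tumor was left out. Its neighbour *Cxcl10* (chr5:92346638-92348889) had 2844, 2389 and 779 normalized counts in WT tumors and 1062, 2213 and 1933 in knockout tumors. For *Cxcl10* the highest tumors were WT, and the log2 fold change was -0.074 (SE 0.49, 95% interval -1.20 to 1.05), with a sign that turned in the absence of single tumors (0.28 without WT tumor 1). The third gene of the row, *Cxcl11*, is annotated as a polymorphic pseudogene and had 18.9, 0 and 0 normalized counts in WT and 0, 10.8 and 7.52 in knockout tumors, too few reads for a comparison.

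*Cxcl9* and *Cxcl10* were also compared within single tumors. The ratio of *Cxcl9* to *Cxcl10* was 0.749, 0.320 and 0.413 in WT tumors and 1.53, 2.43 and 4.16 in knockout tumors, so that it was higher in every knockout tumor. It was not corrected for transcript length, which is the same in all tumors and cancels when tumors are compared. The mean log2 ratio was -1.11 ± 0.63 (SD, n = 3) in WT and 1.32 ± 0.72 (SD, n = 3) in knockout tumors. The pair was chosen after its values were seen, so no test was made. Separation of this kind was common, since 94 of the 378 ratios between the 28 ligands with a mean of at least 10 (24.9%) did not overlap between the groups.

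**Figure D3:**
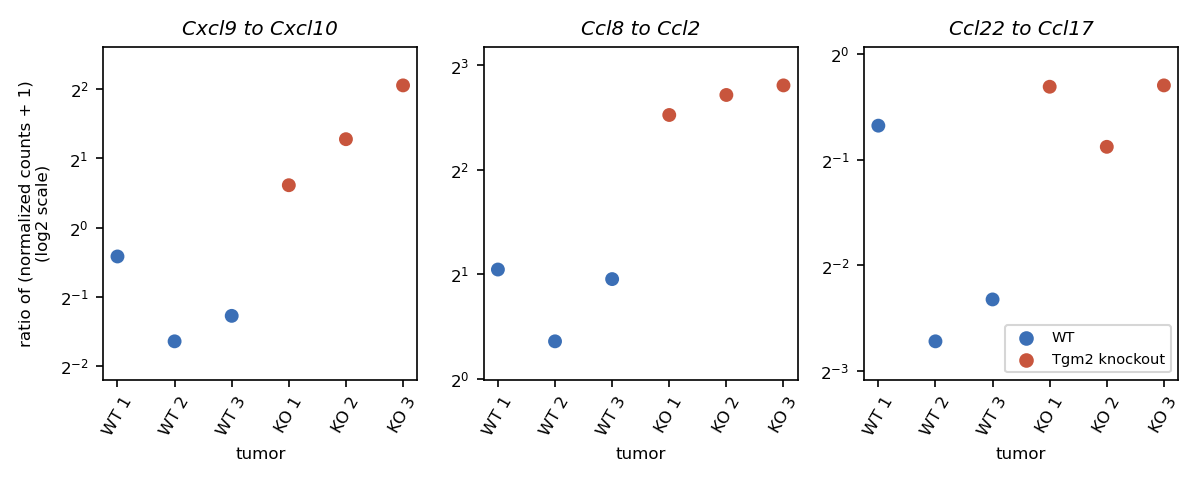
Ratio of 2 ligands within each tumor (y axis, log2 scale, normalized counts + 1) for *Cxcl9* to *Cxcl10*, *Ccl8* to *Ccl2* and *Ccl22* to *Ccl17*, with WT tumors in blue and knockout tumors in red. The first ratio is at most 0.749 in WT and at least 1.53 in knockout tumors, the second is at most 2.07 in WT and at least 5.76 in knockout tumors, and the third overlaps.

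The monocyte attractants had fold changes of both signs. *Ccl2*, *Ccl7* and *Ccl12* are ligands of CCR2, the receptor of inflammatory monocytes, and all 3 had negative log2 fold changes between -0.63 and -0.49, with every 95% interval across 0. Leaving out each tumor gave -1.20 to -0.15 for *Ccl2*, -1.09 to -0.11 for *Ccl7* and -1.11 to -0.25 for *Ccl12*, the lowest without knockout tumor 2 and the highest without knockout tumor 1. *Ccl2* had 642, 1040.4 and 389.9 normalized counts in WT tumors and 210.0, 906 and 367 in knockout tumors, and like the other two it was lowest in knockout tumor 1. *Ccl8* (chr11:82115185-82116799), which lies in the same gene cluster but in the mouse acts through CCR8, had 1327, 1335 and 757 normalized counts in WT and 1214, 5967 and 2580.4 in knockout tumors. Knockout tumors 2 and 3 were above every WT tumor, and knockout tumor 1 was below WT tumors 1 and 2. The log2 fold change of *Ccl8* was 1.27 (SE 0.52, 95% interval 0.071 to 2.46; adjusted p = 0.827 from limma), and 0.68 without knockout tumor 2. The ratio of *Ccl8* to *Ccl2* was 2.07, 1.28 and 1.94 in WT tumors and 5.76, 6.58 and 7.01 in knockout tumors, a pair also chosen after its values were seen and read beside the same 24.9%.

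*Ccl1* and *Ccl11*, grouped here with *Ccl8* as ligands of CCR8 or CCR3, had positive fold changes as well. *Ccl1*, a ligand of CCR8 made by activated T cells and mast cells, had 23.6, 2.07 and 5.13 normalized counts in WT tumors and 14.2, 25.7 and 28.7 in knockout tumors. These are a few reads in WT tumors 2 and 3, the groups overlapped through WT tumor 1, and the log2 fold change was 1.57 (SE 0.88, 95% interval -0.44 to 3.57; adjusted p = 0.889 from limma). Without WT tumor 1 it was 2.40, and without WT tumor 2 it was 0.90. *Ccl11*, the eosinophil attractant eotaxin, ranged from 32.5 in WT tumor 3 to 223 in knockout tumor 2, with a log2 fold change of 0.97 (SE 0.65; 0.44 without knockout tumor 2 and 1.45 without knockout tumor 1).

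The macrophage inflammatory proteins and related CC ligands, which recruit macrophages, monocytes and T cells, varied widely within each genotype. *Ccl6* had 2182, 1479.5 and 1045 normalized counts in WT tumors and 1160.4, 5764 and 2414 in knockout tumors, and *Ccl9* was lowest in knockout tumor 1 (968) and highest in knockout tumor 2 (5183). The T cell and NK cell product *Ccl5* ranged from 401 in WT tumor 3 to 1075 in knockout tumor 3. *Ccl3* and *Ccl4* stayed between 32.5 and 135 normalized counts in all tumors. The 5 log2 fold changes lay between -0.0077 (*Ccl3*) and 0.75 (*Ccl6*), each with a 95% interval across 0. That of *Ccl6* was 0.16 without knockout tumor 2 and 1.31 without knockout tumor 1, and those of *Ccl9*, *Ccl3* and *Ccl4* changed sign when single tumors were left out.

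Among the ligands of CXCR2, the neutrophil receptor, 4 of 5 had negative fold changes and none was called. *Cxcl15*, described below with *Cxcl17*, is counted among the 4. *Cxcl1* had 81.6, 277 and 139 normalized counts in WT tumors and 35.5, 120.2 and 60.6 in knockout tumors, with a log2 fold change of -1.18 (SE 0.63, 95% interval -2.62 to 0.25). That fold change was -1.64 without knockout tumor 2 and -0.73 without WT tumor 2. Although it shares the matched promoter letters printed above, *Cxcl2* had 17.5 to 30.3 normalized counts in all tumors and a log2 fold change of -0.057 (SE 0.58), and that of *Cxcl3* was -0.42 (SE 0.81). *Cxcl5* was highest in knockout tumor 2, at 57.3 normalized counts. The tally of signs rests on single tumors, since *Cxcl3* had 0.26 without WT tumor 1, *Cxcl2* up to 0.087 and *Cxcl5* -0.43 without knockout tumor 2.

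*Cxcl15* and *Cxcl17* are made mainly by mucosal epithelium, and both were highest in WT tumor 3, the tumor with the most *Ltf* and *Pigr*. *Cxcl15* (chr5:90794534-90803067) had 9.47, 138 and 367 normalized counts in WT tumors and 8.53, 31.4 and 0 in knockout tumors. Knockout tumor 1 and WT tumor 1 were nearly level, and the log2 fold change of -3.59 (SE 1.57, 95% interval -7.17 to 0.00067; adjusted p = 0.863 from limma) rests on WT tumors 2 and 3 and on a value of 0. It was -5.06 without WT tumor 1 and -2.21 without knockout tumor 3. *Cxcl17* (chr7:25400053-25412886), an attractant of macrophages and dendritic cells, had 727, 1403 and 3207 normalized counts in WT and 494, 745 and 590.1 in knockout tumors. The groups overlapped by 1 value, since WT tumor 1 lay just under knockout tumor 2. Its log2 fold change was -1.30 (SE 0.48, 95% interval -2.40 to -0.20; adjusted p = 0.801 from limma), and -0.75 without WT tumor 3. A list of 7 secretory epithelium genes, with *Ovgp1* the most abundant, was added after the values were seen. Its summed normalized counts were 541, 12993 and 85360 in WT tumors and 42547, 61161 and 245 in knockout tumors. *Ovgp1* alone made 37108 and 55944 of the sums in knockout tumors 1 and 2. In these 2 tumors *Ltf* had 3718 and 3910 and *Pigr* 247 and 161, against 52176 and 9321 in WT tumor 3. The part of the listed genes in the 2 ligands was not tested.

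*Cx3cl1* and *Cxcl16* had the 2 highest mean normalized counts of the 31 ligands, without correction for length. *Cx3cl1* (fractalkine), a membrane-bound attractant of monocytes and NK cells, had 6413, 4905 and 5187 normalized counts in WT tumors and 3934, 5756 and 7616 in knockout tumors, with the lowest and the highest value both in knockout tumors. Its log2 fold change was 0.027 (SE 0.27, 95% interval -0.59 to 0.64), with a sign that changed under quantile normalization (-0.021). *Cxcl16* (chr11:70453983-70459984), the membrane-bound ligand of CXCR6, had 5789.5, 4402 and 5219 in WT and 2873, 5415 and 4239 in knockout tumors. Its groups overlapped and its log2 fold change was -0.34 (SE 0.26, 95% interval -0.93 to 0.26). The sheddases that release both ligands, *Adam10* and *Adam17*, had log2 fold changes of 0.18 (SE 0.21) and 0.12 (SE 0.22).

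*Cxcl12* and *Cxcl14* are made by stroma and many other cells. *Cxcl12* (chr6:117168535-117181367), the ligand of CXCR4, had 3819.6, 4985 and 2998 normalized counts in WT tumors and 3469.5, 6632 and 2667 in knockout tumors, again with both extremes in knockout tumors. Its log2 fold change was 0.035 (SE 0.35, 95% interval -0.76 to 0.83), and it was -0.064 with array weights. *Cxcl14* (chr13:56288643-56296551) had 5092, 3528 and 2110.2 in WT and 6033, 2939 and 4447 in knockout tumors, with a log2 fold change of 0.35 (SE 0.37, 95% interval -0.49 to 1.19). Both pairs of groups overlapped.

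The remaining ligands were *Xcl1*, *Ccl27a*, *Ccl27b*, *Ccl20* and the pseudogene. *Xcl1*, the product of NK cells and CD8 T cells that attracts cross-presenting dendritic cells, had 80.7, 72.1 and 17.3 normalized counts in WT tumors and 57.3, 130.4 and 194 in knockout tumors, and the log2 fold change was 1.26 (SE 0.73; 0.56 without WT tumor 3 and 1.74 without knockout tumor 1). The epithelial CCR10 ligand *Ccl27a* had a log2 fold change of -0.85 (SE 0.38, 95% interval -1.72 to 0.015), but it shares sequence with its near-identical copy *Ccl27b*, so the split of reads between them is uncertain. *Ccl20*, the ligand of CCR6, had at most 6.18 normalized counts in any tumor and *Ccl27b* at most 5.61. *Ccl19-ps2* had 15.4 to 90.7 normalized counts, and its reads may belong in part to *Ccl19*.

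Variation between tumors of one genotype was wide across the ligands. Of the 31, 12 had their lowest value in WT tumor 3 and 11 in knockout tumor 1, while 9 had their highest value in knockout tumor 2 and 7 each in WT tumor 1 and knockout tumor 3. Summed over the 31 ligands, the tumors held 36253, 31708 and 26092 normalized counts (WT) and 25058, 51220 and 40664 (knockout). The sum over 10 macrophage marker genes, of which *Lyz2* was the most abundant, was 86726, 65022 and 43036 in WT and 42646, 134150 and 96031 in knockout tumors. The 6 tumors had the same order in both sums, with knockout tumor 1 and WT tumor 3 the lowest and knockout tumor 2 the highest. Over the macrophage list 10 of 10 fold changes were positive (median 0.50), 2 genes had an unadjusted p under 0.05 and 0 were called. The part of macrophage content in the ligand values was not tested.

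**Figure D4:**
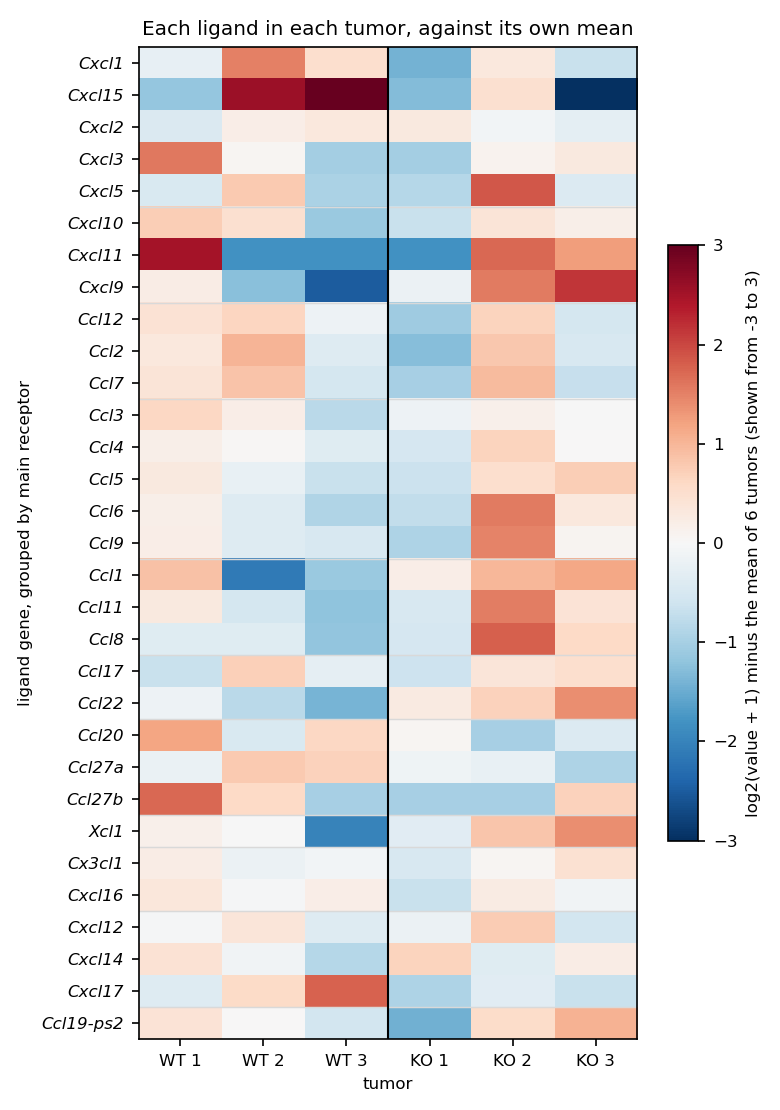
Log2(value + 1) of each ligand in each tumor minus the mean of that ligand over the 6 tumors (colour, from -3 in blue to 3 in red), with the WT tumors on the left of the line and the knockout tumors on the right. The columns of WT tumor 3 and knockout tumor 1 are mostly blue and that of knockout tumor 2 mostly red, and *Cxcl15* and *Cxcl17* go against this in WT tumor 3.

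Markers of other cell types were examined beside the ligands, and their counts are read against all genes, of which 3.4% had an unadjusted p under 0.05 and were higher, 5.18% had every knockout tumor above every WT tumor and 5.33% every one below. White adipocyte markers had 8 of 8 positive fold changes (median 1.96), 7 with an unadjusted p under 0.05, and *Lep* was called. Their sums, led by *Lpl*, were 39365, 52454 and 28084 in WT and 42674, 155780 and 90095 in knockout tumors. The highest, knockout tumor 2, was also the highest for 9 of the 31 ligands and for the macrophage sum. T cell markers had 12 of 12 positive (median 1.01), with no gene called, and their sums, led by *Trac*, were 2392, 1423 and 1350.4 in WT tumors and 2454, 2646 and 4444 in knockout tumors. *Cd79a* was called of 8 B cell markers (sums of 539, 361 and 466 in WT and 1346, 1177 and 1859 in knockout tumors), and *Jchain* and *Mzb1* of 7 plasma cell markers. The plasma cell sums, led by *Jchain*, were 15659, 17634 and 12796 in WT and 58816, 81815 and 85885 in knockout tumors. Dendritic cell markers had a median of 1.01 and summed to 8978, 5242 and 4317 in WT and 6981, 7341 and 11102 in knockout tumors (led by *Fscn1*), and every knockout tumor was above every WT tumor for 4 of 8 (*Flt3*, *Xcr1*, *Clec9a* and *Cd209a*). NK cell markers had 8 of 9 positive (median 0.89), none with an unadjusted p under 0.05 and 4 without overlap (*Ncr1*, *Klrd1*, *Gzma* and *Prf1*), and their sums, led by *Klrk1*, were 583, 488 and 286 in WT and 509.7, 827 and 1113 in knockout tumors. Mast cell and eosinophil markers had 6 of 7 positive (median 1.07), 4 with an unadjusted p under 0.05, and *Cpa3* and *Prg2* without overlap. Their sums, led by *Kit*, were 4534, 2945 and 2535 in WT and 3301, 6041 and 4553 in knockout tumors.

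Fibroblast markers had 8 of 8 positive fold changes (median 0.60), with overlapping groups for all 8, and sums led by *Col3a1* of 277400, 165010 and 86503 in WT and 216730, 250700 and 237590 in knockout tumors. Endothelial markers had 7 of 8 positive (median 0.51), with *Emcn* and *Lyve1* above in every knockout tumor, and sums led by *Flt4* of 16257, 9388 and 9292 in WT and 14756, 13706 and 16920 in knockout tumors. No fibroblast, endothelial, NK cell or mast cell gene was called. Monocyte markers had 3 of 6 positive fold changes (median 0.024) and 0 called. Their sums, led by *Fn1*, were 55709, 31021 and 21174 in WT and 22896, 35627 and 32543 in knockout tumors. *Ly6c2* had 400, 250 and 238 normalized counts in WT and 785, 2223 and 1563 in knockout tumors, without overlap. Its log2 fold change was 2.28 (SE 0.40; adjusted p = 0.212 from limma). Neutrophil markers had 6 of 8 negative fold changes (median -0.35), and 16.1 to 33.4 normalized counts of *Cxcr2*. Their sums, led by *Csf3r*, were 495, 605 and 484 in WT and 483, 1072 and 847 in knockout tumors. *Csf3r* itself was above in every knockout tumor, at 374, 355 and 743 normalized counts against 317, 175 and 272 in WT. Its log2 fold change was 0.90 (SE 0.39; adjusted p = 0.859 from limma). Of 9 ovarian tumor epithelium markers, led by *Wt1*, 6 had negative fold changes (median -0.40), and the knockout values were below all WT values for *Krt8* and *Krt19*. The part of these cell types in the ligand values was not tested.

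Of 18 listed chemokine receptors, 17 were in the table and none was called. The knockout values were above all WT values for 4 of them (*Cxcr3*, *Xcr1*, *Ccr10* and *Cxcr5*), the same 4 with an unadjusted p under 0.05, and below them for none, where 5.18% of all genes were without overlap above and 3.4% passed that p upwards. *Cxcr3*, the receptor of *Cxcl9* and *Cxcl10*, had 129.5, 81.2 and 60.8 normalized counts in WT tumors and 243, 236 and 462 in knockout tumors, with no overlap. Its log2 fold change was 1.78 (SE 0.45, 95% interval 0.75 to 2.81), without passing adjustment (adjusted p = 0.566 from limma). *Xcr1*, the *Xcl1* receptor of cross-presenting dendritic cells, had 68.2, 60.5 and 27.3 normalized counts in WT and 95.8, 166 and 341 in knockout tumors, a log2 fold change of 1.84 (SE 0.61). *Ccr10*, the receptor of *Ccl27a* that is also carried by IgA plasma cells, had 24.6, 54.1 and 60.8 against 116, 147 and 140.2, a log2 fold change of 1.61 (SE 0.51) where its ligand had -0.85. *Cxcr5*, the B cell homing receptor, was low in WT (14.8 to 18.1) and at 62.1, 25.5 and 73.9 in knockout tumors.

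Receptors of the other ligands had overlapping groups. *Ccr4*, the receptor of *Ccl22* and *Ccl17*, had 22.8, 12.5 and 17.6 normalized counts in WT and 28.1, 12.7 and 29.9 in knockout tumors, with a log2 fold change of 0.35 (SE 0.64), so that its values did not separate as those of *Ccl22* did. *Ccr8*, the receptor of *Ccl8* and *Ccl1*, reached 104 in knockout tumor 3 and lay between 19.7 and 44.1 elsewhere. The log2 fold change was 0.57 (SE 0.32) for *Ccr2*, 0.76 (SE 0.45) for *Cxcr6*, 0.32 (SE 0.33) for *Cxcr4*, 0.38 (SE 0.37) for *Cx3cr1* and -0.36 (SE 0.59) for *Cxcr2*. Of 5 atypical receptors, which take up chemokines without signalling for migration, 0 were called and all had positive fold changes. *Ackr3*, the scavenger of CXCL12, had 468, 654 and 386 normalized counts in WT tumors and 1001, 1039 and 966 in knockout tumors, without overlap (log2 fold change 1.03, SE 0.25; adjusted p = 0.542 from limma). *Ccrl2* was also higher in every knockout tumor, by 0.36 (SE 0.37).

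**Figure D5:**
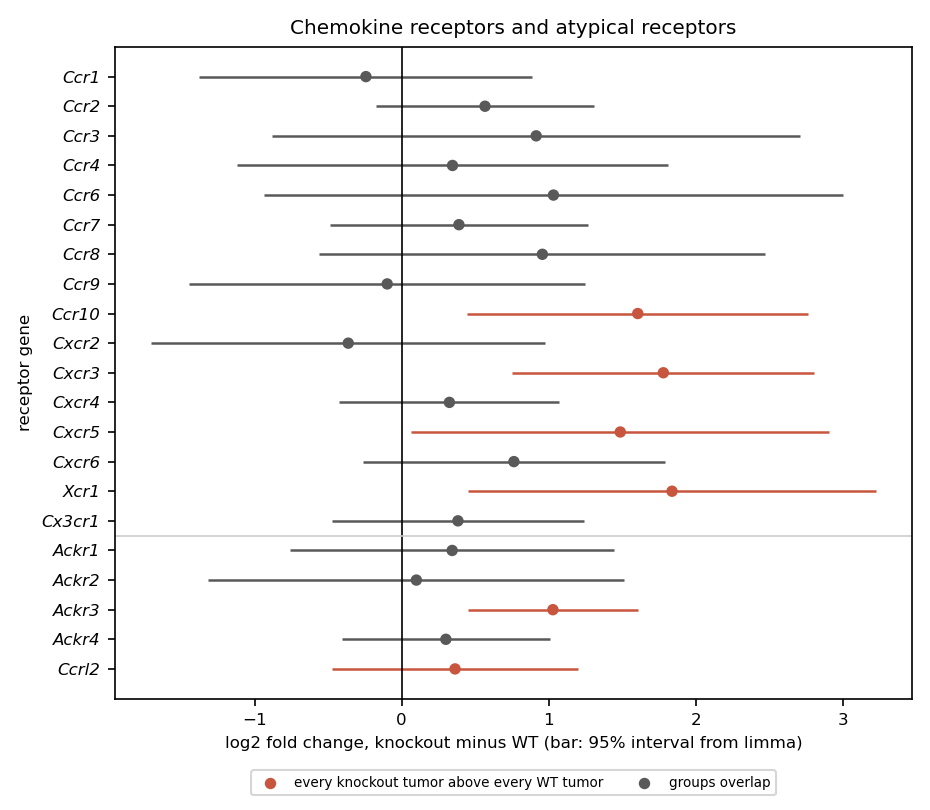
Log2 fold change, knockout minus WT, of 16 of the 17 chemokine receptors (above the line) and 5 atypical receptors (below it), with the 95% interval from limma (bars, n = 3 tumors per group). The 6 receptors in red, *Ccr10*, *Cxcr3*, *Cxcr5*, *Xcr1*, *Ackr3* and *Ccrl2*, had every knockout tumor above every WT tumor.

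Pathway lists that act upstream of these ligands were then examined. Interferon gamma induces *Cxcl9* and *Cxcl10*, and of 18 genes of its pathway 16 had positive fold changes (median 0.47), 5 had an unadjusted p under 0.05 (3.4% of all genes, upwards), and 0 were called. The 3 smallest p-values belonged to *Iigp1* (1.30, SE 0.29), *Ciita* (1.17, SE 0.32) and *Igtp* (1.14, SE 0.42), all on the log2 scale. *Iigp1*, an interferon-induced GTPase, had 2260.2, 2011 and 1450.4 normalized counts in WT and 3158, 5023 and 6207 in knockout tumors, and its groups did not overlap (adjusted p = 0.433 from limma). *Ifng* itself was also higher in every knockout tumor, at 12.7, 10.2 and 12.1 normalized counts against 3.38, 0.774 and 7.39, which are a few reads each.

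NF-kB drives many of the same ligands, *Cxcl1*, *Cxcl2*, *Ccl2* and *Ccl20* among them. Of 17 genes of this pathway and its inflammatory cytokines 14 had negative fold changes (median -0.65), 3 had an unadjusted p under 0.05 in that direction (2.38% of all genes), and 0 were called. Those 3 were *Icam1* (-0.67, SE 0.22), *Ptgs2* (-0.82, SE 0.32) and *Il1a* (-1.43, SE 0.56). The knockout values were below all WT values for *Icam1*, *Il1a*, *Tnf* and *Nfkbiz*, beside 5.33% of all genes. *Tnf*, which encodes the cytokine tumor necrosis factor, had 61.4, 64.5 and 60.8 normalized counts in WT tumors and 30.3, 44.1 and 45.3 in knockout tumors, and *Icam1*, an adhesion molecule for leukocytes, had 6393, 6426 and 4489 against 2962, 3904 and 3920.5. *Nfkbiz* reached 1539.7 in WT tumor 3, where *Ltf* was highest, and was at most 324 elsewhere.

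Type 2 cytokines induce *Ccl8*, *Ccl11*, *Ccl17*, *Ccl22* and *Ccl24* in macrophages and stroma. Of 10 tested genes of this list 5 had positive and 5 negative fold changes, and 0 were called. The alternatively activated macrophage gene *Retnla* had 102, 49.6 and 107 normalized counts in WT and 162, 753 and 401 in knockout tumors, a log2 fold change of 2.15 (SE 0.60; adjusted p = 0.649 from limma). Every knockout value was above every WT value.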

How the data were processed

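RNA of 3 WT and 3 *Tgm2* knockout tumors was extracted, poly(A)-selected and sequenced as paired reads. The submitters' processing notes name kallisto 0.46.2 and GRCm38. The authors mapped transcripts to genes, removed genes with low expression and applied DESeq2 size factors, and the deposited values are a signal, namely normalized counts, although the table is labelled TPM: its columns do not sum to a fixed total. Whole counts were not available for genes with several transcripts, so no count model was fitted.

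Values were analysed as log2(value + 1). Genes reaching 1 in 3 or more tumors (19667 of 20076) were fitted with limma 3.58.1 (R 4.3.3), with a trend of variance on mean, genotype as the only term and two-sided tests adjusted by Benjamini-Hochberg over all genes. The fit was tested on simulated data. Tables used Python 3.11.15. No 2 libraries shared identical values above 0; the labels give no batch and do not say which mouse each tumor came from, so p-values measure the spread between these tumors.

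Gene positions and transcript lengths were matched by symbol to GENCODE M21 (GRCm38), and promoters to RefSeq (GRCm38.p6). The symbol rule uses no expression value, but the ligands were taken as a subject, and the gene lists written, with earlier results of these data known. Values of all tumors are given for ligands called or without overlap between groups and for the 5 ligands with the highest means. They are also given for the 6 largest fold changes among ligands with a mean of at least 10. Receptors without overlap or matching such a ligand, and list genes without overlap or with the 3 smallest p, were chosen for naming. Some of these are given by fold change or symbol only. Other genes were named after their values were seen. Single-gene results of some list genes, a receptor left out of the plot among them, are not reported here. Alternatives changed the pseudocount, filter, scaling, variance trend, tumor weights and thresholds, added the replicate number as a block, and left out each tumor in turn.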

Additional observations from a re-analysis of the deposited data

How the results depend on the processing

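No ligand was called in either direction, and no receptor was called, under any of the 16 fits or with adjusted p alone as the limit. At an unadjusted p with the fold limit, 3 ligands were higher and 1 was lower, 4 of the 17 receptors and the atypical receptor *Ackr3* passed, and 796 of all genes did. The 20 genes called among all genes became 4 without the variance trend, and 2 to 15 when 1 tumor was left out (2 without WT tumor 2, 8 without WT tumor 1, 11 without knockout tumor 2, and 13 without either WT tumor 3 or knockout tumor 1). The causes were not tested, and leaving out a tumor also lowers the number of tumors fitted. Deviations of same-numbered tumors from their group means correlated at -0.163, 0.282 and -0.292, so the replicate numbers gave no uniform pairing. Among differently numbered tumors, WT tumor 1 with knockout tumor 3 (0.336) and WT tumor 3 with knockout tumor 1 (0.327) were positive. The rest lay between -0.234 and -0.0073. Whether the tumors share batches or pairs in another order was not tested. A fit with the replicate block called 5 genes and no ligand. The median log2 fold change of the ligands, 0.035, ran from -0.19 without knockout tumor 2 to 0.26 without WT tumor 1, so its sign depends on single tumors, and it was -0.021 under quantile normalization.

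Signs turned for 11 of the 31 ligands under 1 or more alternatives: *Ccl3*, *Ccl4*, *Ccl9* (-0.20 without knockout tumor 2), *Ccl17*, *Ccl19-ps2*, *Cxcl2*, *Cxcl3*, *Cxcl5*, *Cxcl10*, *Cx3cl1* and *Cxcl12*. That of *Cx3cl1* was -0.021 under quantile normalization and between -0.20 and 0.28 when each tumor was left out (-0.051 without WT tumor 2, -0.011 without WT tumor 3, -0.20 without knockout tumor 3). That of *Cxcl12* was -0.064 with array weights and between -0.34 and 0.32 when each tumor was left out (-0.15 without WT tumor 3, -0.34 without knockout tumor 2). The other 8 ligands given tumor by tumor under the naming rule kept their sign throughout, but not always their size. That of *Cxcl14*, 0.35, was 0.017 without WT tumor 3, and that of *Cxcl16*, -0.34, was -0.092 without knockout tumor 1. With a median SE of 0.54 for the ligands, a p that misses the limit does not show that levels were alike. Means under 10 normalized counts (*Cxcl11*, *Ccl20*, *Ccl27b*) allow no comparison at this depth.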

Other observations

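Of the chemokines outside the symbol rule, *Ccl28*, a mucosal ligand of CCR10, had 2029.7 normalized counts in WT tumor 3 and 25.5 to 112 in the other 5 tumors. *Ccl25*, the thymic and intestinal ligand of CCR9, had 242, 233 and 279 normalized counts in WT tumors and 149, 190.2 and 167 in knockout tumors, with every knockout tumor below every WT tumor (log2 fold change -0.58, SE 0.31; adjusted p = 0.889 from limma). *Cxcl13*, the B cell attractant, ranged from 99.5 in WT tumor 3 to 476 in knockout tumor 3 with overlapping groups. *Ccl21b* had 155, 6.22 and 63 normalized counts in WT and 448, 229 and 206 in knockout tumors, but it has near-identical copies, and *Ccl21a* had overlapping groups (log2 fold change -0.49, SE 0.49).

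The platelet chemokines *Pf4* and *Ppbp* have symbols without the family name. *Pf4*, which macrophages also express, had a log2 fold change of 0.077 (SE 0.45). *Ppbp*, encoding the precursor of a CXCR2 ligand, had 5.66, 23.9 and 7.11 normalized counts in WT tumors and 2.84, 1.96 and 1.08 in knockout tumors, below in each but resting on a few reads.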
